A study of Mus musculus with 8 samples.

Results

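The genes described here form a stretch of mouse chromosome 1 between Ptprc, which encodes the leukocyte surface phosphatase CD45, and Pm20d1, which lies close to Ctse, the gene of the aspartic protease cathepsin E. A list of 60 genes was matched by symbol or synonym to the probes of the deposited table, and 59 of them had at least 1 probe (126 probes of 40646). Atp2b4, a plasma membrane calcium pump, was the one without a match. In the gene order of the GRCm38.p6 assembly, 54 of the listed genes lie from Pm20d1 to Ptprc, while 6 (Nek7, Lhx9, Dennd1b, Crb1, Zbtb41 and Aspm) lie beyond Ptprc and so outside the interval that the list is named for. The arrays' own grid is named for another build, so no gene coordinates are given. Of the 59 genes, 52 were bright enough to be tested, with 93 probes. The other 7 (Elf3, Lhx9, Pkp1, Ppfia4, Shisa4, Sox13 and Tnnt2) had probes, but none passed the filter on dim signals. The members were chosen by position with the miR-223KO minus WT log2 differences of these same arrays already known, so their differences are given as descriptions. Where the outcome of the fit over all genes is stated for them, it is not independent evidence.

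Liver RNA from 4 WT and 4 miR-223KO samples, which lack the microRNA miR-223, was hybridised on 8 Agilent 2-colour arrays. Both groups were male and C57BL/6J per the labels and had received a high-fat diet for 3 months. Liver was in Cy5 on every array, against Ambion mouse assorted total RNA in Cy3, with no dye swap, so each value below is a log2 ratio of liver over that mixed-tissue reference. The labels give no age, do not say how the knockout was made and name no allele of Ptprc, and whether the samples are from different mice is not stated. Any p-value therefore measures only the spread between these samples, which may be technical. Replicates 1 and 2 of both groups were on one slide and replicates 3 and 4 on the other.

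Spots well above background made up 49.5% to 69.8% of the 43379 non-control spots in Cy5, and no spot was saturated. Hepatocyte markers together stood above the reference on every array but moved with genotype: the mean log2 ratio of 5 tested hepatocyte markers ran from 0.89 to 1.89 in WT and from 0.42 to 0.78 in miR-223KO. All 5 stood lower in miR-223KO, with a median difference of -0.55, and none passed the test. The part of this shift in the values below was not tested.

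CD45 is a receptor-type tyrosine phosphatase carried by nearly all nucleated blood cells, where it sets the threshold of antigen receptor signalling by acting on Src-family kinases. Its a and b alleles are widely used to tell donor from host leukocytes in congenic mice, and genes that lie near a selected allele tend to be inherited with it. The genes between Ptprc and Ctse otherwise share position rather than function: they include muscle proteins, small leucine-rich proteoglycans, regulators of p53, mitotic kinesins and proteins of membrane traffic. miR-223 is a microRNA of myeloid cells, and its gene lies on chromosome X, so the stretch described here is not the deleted locus.

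The 3p strand of miR-223, the microRNA missing from the knockout, is shown first, from RefSeq (GRCm38.p6), since that loss defines the contrast. A mature 5p strand is also listed there and is not shown. Capitals mark the seed of the 3p strand, bases 2 to 8.
mmu-miR-223-3p: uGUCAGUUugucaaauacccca

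What each array measured is set by its probes of 60 bases. Among the genes whose probes are set against each other below, only Ptprc, Ddx59, Kdm5b and Plekha6 are shown, by the first 30 bases. Pm20d1, with the widest difference in the list, is shown too. The bases are in lower case because none is singled out.
Ptprc, brightest probe: ttatgggaaatgtaaaattgactatggcca
Ptprc, other tested probe: aaagtgcagaaacagaagatgtggttgatg
Ddx59, brightest probe: tgagaccttaaatcagaacttgaagaaatc
Ddx59, other tested probe: agactcggtcaaaatggaactgcaatcaca
Kdm5b, brightest probe: gaccagagccagtcctttaagccatgttct
Kdm5b, other tested probe: agaaggtgggtttgcagttgtttgcaagga
Plekha6, brightest probe: ttggggccaatttggtttgctagtgttaga
Plekha6, other tested probe: tggggccttacctagccagtttaaacccgg
Pm20d1, tested probe: tgtgtcaaaatatcacagtacttcactaaa

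Along the stretch the listed genes stood close to 0 in both directions. Of the 52 tested, 23 stood higher in miR-223KO and 29 lower, against 48.2% higher among all 16755 genes and unnamed probes tested. Their median log2 difference, miR-223KO minus WT, was -0.06, against -0.01 over everything tested, and their median absolute difference was 0.161, against 0.148. Differences ran from -0.56 (Kdm5b) to 0.59 (Pm20d1), and 38 of the 52 lay within 0.25 of 0. The standard error of a single gene's difference had a median of 0.204, and 34 of the 52 differences were smaller than their own standard error.

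None of the 52 passed limma's moderated test at an adjusted p of 0.05, which 0.0119% of everything tested did. At an unadjusted p below 0.05 there were 4 (Pm20d1, Golt1a, Kdm5b and Tnni1), or 7.69%, beside 4.67% overall. The 4 values of one group lay wholly below those of the other in 1 listed gene, Ipo9, which is 1.92%, beside 1.44% overall for lower values, and in no listed gene wholly above, beside 1.64% (3.09% overall for both directions). Differences beyond 0.5 on the log2 scale were seen in 3 listed genes, or 5.77%, beside 3.78%. Because the contrast was used to draw up the list, nothing is read from these shares. The balance of signs also depended on the processing and the arrays. Centring each array on its median in place of loess gave 36 higher and 16 lower, with a listed median of 0.07 beside 0.08 over everything tested, and leaving out miR-223KO replicate 3 gave 27 higher and 25 lower, with a median of 0.02. The first slide alone gave 30 higher and 22 lower, with a median of 0.03, and the second alone 26 and 26, with a median of -0.01.

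The 2 slides often disagreed. Of the 52 genes, 20 kept one sign on both slides (38.5%), 12 higher and 8 lower, beside 45.2% of everything tested. Per array, the median log2 ratio of the listed genes lay between -0.03 and 0.04 in WT and between -0.06 and 0.07 in miR-223KO, so the 2 groups overlapped.

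**Figure D1:**
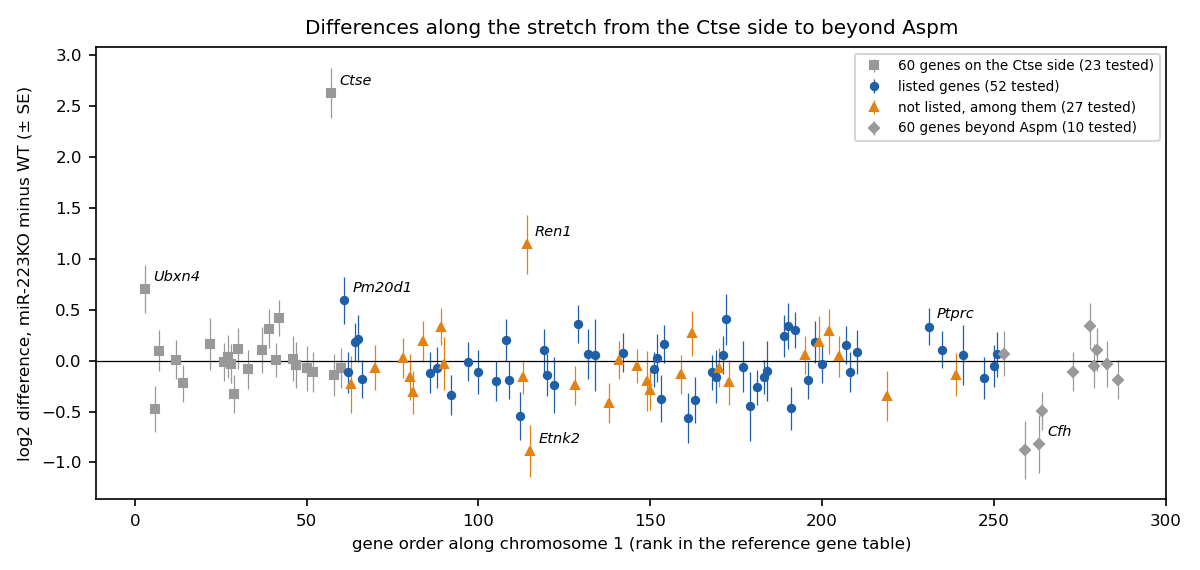
Log2 difference, miR-223KO minus WT, with its standard error (vertical axis) against gene order on chromosome 1 (horizontal axis, number of genes), for the listed genes, the genes among them that are not listed, and 60 genes on each side. Listed genes lie between -0.56 and 0.59, while Ctse, at 2.63, and Ren1, at 1.14, stand well above them.

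Genes of the same interval that are not on the list numbered 117 in the reference table, of which 31 were on the array and 26 were tested. Of these, 10 stood higher and 16 lower, the median was -0.07, and none passed the test. Their range was wider than the listed genes', from -0.89 to 1.14, and both ends lie side by side between Golt1a and Sox13: Etnk2, an ethanolamine kinase, stood at -0.89 and Ren1, which encodes renin, at 1.14 by its brightest probe and 1.76 by its other probe. Past Pm20d1, Ctse stood 2.63 (SE 0.25) higher in miR-223KO, with WT ratios of -2.13, -1.66, -1.32 and -1.84 and miR-223KO ratios of 0.74, 1.39 and 0.54, one spot being left out as an outlier (limma, adjusted p = 0.0004281). Pm20d1, the listed gene nearest to Ctse, stood at 0.59, but between it and Ctse Slc26a9 stood at -0.07 and Rab7b at -0.15. Of the 60 genes on the Ctse side, Ctse included, 23 were tested, 12 higher and 11 lower, with a median of 0.0039. The groups did not overlap in 3 of these, or 13%, beside 3.09% of everything tested. They were Ctse, Ubxn4 (0.70) and Mapkapk2 (0.42), all higher, and of the 23 only Ctse passed the test. Ren1 has Golt1a and Sox13 at the same number of genes on either side. Golt1a stood at -0.54, and Sox13 was too dim to be tested.

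Beyond the far end of the list, 10 of the 60 genes next to Aspm were tested, with 3 higher and 7 lower. The 5 tested listed genes beyond Ptprc had a median of 0.05, and the 1 tested gene among them that is not listed stood at -0.14.

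Among the leukocyte signalling genes, Ptprc and Ptpn7 stood higher in miR-223KO and Lax1 lower, and none of the 3 passed the test. Ptprc gave WT ratios of -0.40, -0.32, 0.0075 and -0.30 and miR-223KO ratios of 0.33, -0.08, -0.0018 and 0.08. WT replicate 3 lay within the range of the miR-223KO values, so the groups overlapped. The difference was 0.33 (SE 0.18), from -0.25 ± 0.18 in WT to 0.08 ± 0.18 in miR-223KO (SD, n = 4 each). A second tested probe gave -0.22, -0.03, 0.04 and -0.0071 in WT and 0.53, -0.11, 0.49 and 0.39 in miR-223KO, a difference of 0.38 (SE 0.19). Here 3 of 4 miR-223KO values lay above every WT value and replicate 2 lay inside the WT range. Both probes were dim: they were above background on 3 and 2 WT arrays, and on all 4 miR-223KO arrays. The remaining 2 Ptprc probes were above background on 0 and 1 arrays and were not tested.

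General leukocyte, macrophage and Kupffer cell markers mostly stood on the same side as Ptprc, while lymphocyte and neutrophil markers were split. Of 7 general leukocyte markers besides Ptprc, all 7 were tested and stood higher in miR-223KO, with a median difference of 0.27. Their mean ratio ran from -0.19 to 0.38 in WT and from -0.0041 to 0.48 in miR-223KO, so the groups overlapped, and none passed the test. Monocyte and macrophage markers had a median of 0.54 (5 of 5 tested higher), and Kupffer cell markers 0.18 (5 of 6). Neutrophil markers were 2 higher and 3 lower (median -0.05), T or NK cell markers 1 higher and 3 lower (-0.08), and B cell markers 2 and 2 (-0.04). In whole liver, a change in the number of leukocytes and a change in RNA per cell cannot be told apart, and the part of either in the Ptprc value was not tested.

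Lax1, an adaptor that restrains lymphocyte signalling, had no common direction. Its WT ratios were 0.04, 0.05, 1.42 and 0.79, and its miR-223KO ratios were 0.26, 0.47, -0.01 and 0.62. WT replicate 3 lay above the rest, and without it the difference went from -0.24 to 0.04. Ptpn7, a phosphatase of haematopoietic cells that acts on MAP kinases, stood at 0.06.

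Regulators of p53 and stress gave 3 genes higher and 1 lower of 4 tested. Phlda3, a p53 target that restrains Akt, had WT ratios of -0.25, -0.17, -0.10 and -0.48 and miR-223KO ratios of -0.08, -0.45, 0.70 and 0.19, a difference of 0.34 (SE 0.23). Replicates 1, 3 and 4 of miR-223KO lay above all WT values, replicate 1 only just, and replicate 2 lay inside the WT range. The difference was -0.05 on the first slide and 0.74 on the second. Ppp1r15b, a regulatory subunit that helps to dephosphorylate eIF2-alpha, had WT ratios of -0.42, -0.16, -0.22 and -0.31 and miR-223KO ratios of -0.37, 0.31, 0.19 and -0.43. Its difference of 0.20 (SE 0.20) was no larger than its error, and a second probe gave 0.08. Mdm4, an inhibitor of p53, was read by 5 tested probes that ran from -0.31 to 0.03. Btg2, an antiproliferative p53 target, stood at 0.06 by its brightest probe and at -0.43 and -0.23 by the others, and its 4 miR-223KO ratios of -0.62, -0.83, -1.23 and 0.96 spanned the widest range among these genes.

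The genes of mitosis and DNA repair lay within 0.12 of 0. Kif14, a kinesin of cytokinesis, had WT ratios of 0.05, 0.65, 0.54 and 0.37 and miR-223KO ratios of 0.08, 0.12, 0.62 and 0.34. Nek7, a kinase of the mitotic spindle that also binds the NLRP3 inflammasome, had WT ratios of 0.43, 0.19, 0.15 and -0.0050 and miR-223KO ratios of 0.15, 0.27, 0.22 and 0.56. Both genes' groups overlapped widely, with differences of -0.11 (SE 0.20) and 0.11 (SE 0.18). Aspm, a spindle pole protein, stood at 0.06 and Ube2t, the ubiquitin-conjugating enzyme of the Fanconi pathway, at -0.12. Markers of dividing cells were split in the same way, 2 higher and 2 lower of 4 tested.

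Of the chromatin and transcription genes, 7 of 10 were tested, 2 standing higher and 5 lower. Kdm5b, a demethylase of histone H3 lysine 4, had the lowest difference in the list, -0.56 (SE 0.24). Its WT ratios were 0.37, 0.50, -0.04 and 0.84, and its miR-223KO ratios were -0.59, 0.36, 0.14 and -0.49. Replicates 1 and 4 of miR-223KO lay below every WT value and the other two lay inside the WT range. The differences on the 2 slides were alike, -0.55 and -0.57. The other Kdm5b probe gave 0.54, 0.35, 0.30 and 0.20 in WT and -0.11, -0.08, 0.49 and 0.21 in miR-223KO, a difference of -0.22 (SE 0.19), with the low miR-223KO values now in replicates 1 and 2. Nucks1, a DNA-binding nuclear protein, had WT ratios of 0.17, -0.05, 0.20 and 0.41 and miR-223KO ratios of 0.11, 0.61, 0.21 and 0.51. The groups overlapped, the difference was 0.18 (SE 0.19), and its 4 tested probes ran from -0.20 to 0.27.

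Both RNA processing genes stood higher. Ddx59, an RNA helicase, had WT ratios of 0.02, -0.15, -0.34 and -0.36 and miR-223KO ratios of 0.24, -0.17, -0.07 and -0.20, a difference of 0.15 (SE 0.18). Its other probe gave -0.16, -0.42, 0.17 and -0.32 in WT and 0.54, 0.53, -0.12 and 0.16 in miR-223KO, a difference of 0.46 (SE 0.20). The groups overlapped on both. Both probes were dim: the brightest was above background on 2 WT and 4 miR-223KO arrays, and the other on 3 and 4. Snrpe, a core protein of the spliceosome, had WT ratios of -0.37, -0.26, 0.20 and 0.11 and miR-223KO ratios of 0.44, -0.01, -0.39 and 0.04. It stood 0.53 higher on the first slide and -0.33 on the second, and its difference of 0.10 became -0.04 without miR-223KO replicate 1. Leaving out WT replicate 1 took it to 0.0045.

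The muscle genes gave 2 higher and 3 lower of 5 tested. Tnni1, the slow skeletal troponin I, had WT ratios of 0.35, 0.17, 0.36 and 1.05 and miR-223KO ratios of 0.17, 0.26, -0.19 and -0.18, a difference of -0.47 (SE 0.21). On the second slide both miR-223KO values lay below all WT values, while on the first the difference was -0.05. Its other probe gave 0.43, 0.09, 0.34 and -0.07 in WT and -0.11, 0.10, -0.19 and -0.29 in miR-223KO, a difference of -0.32 (SE 0.18). With the channels taken apart after scaling between arrays (Aquantile), the liver channel of the brightest probe differed by -0.07 and the Cy3 reference by 0.40. Over the list, 18 of 52 genes had a larger difference in the reference than in liver. That share was not computed over everything tested, and the part of the reference in the ratios was not tested.

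Ppp1r12b, a myosin phosphatase subunit, had WT ratios of 0.78, 0.32, 1.16 and 0.79 and miR-223KO ratios of 0.59, 0.41 and 0.13, one spot being left out as an outlier. The difference was -0.39 (SE 0.23), yet its other probes gave 0.12 and 0.32, so the probes of this gene disagreed in sign. Lmod1, an actin nucleator of smooth muscle, had WT ratios of -0.12, -0.20, -0.17 and -0.06 and miR-223KO ratios of -0.41, -0.14, -0.48 and -0.55. Only miR-223KO replicate 2 lay within the WT range, and the difference was -0.26 (SE 0.17).

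Csrp1, a LIM protein of smooth muscle, had WT ratios of -0.23, 0.12, -0.13 and -0.04 and miR-223KO ratios of 0.35, -0.37, 0.46 and 0.26, a difference of 0.24 (SE 0.20). Cacna1s, the skeletal muscle L-type calcium channel, had WT ratios of -0.50, -0.45, -0.52 and -0.37 and miR-223KO ratios of 0.27, -0.17, -0.65 and -0.55. Its difference of 0.18 (SE 0.21) rested on miR-223KO replicate 1, without which it was -0.00075, and its other probe gave -0.21. Markers of skeletal and cardiac muscle were mostly dim, with 2 of 10 tested, and smooth muscle and stellate cell markers were 1 higher and 7 lower of 8, with a median of -0.08.

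Of the matrix proteoglycans, Prelp stood higher and Fmod close to 0. Prelp, a leucine-rich proteoglycan of connective tissue, had WT ratios of -0.16, 0.20, 0.17 and 0.11 and miR-223KO ratios of 0.07, 0.45, 0.54 and 0.71, a difference of 0.36 (SE 0.19). Within each slide it stood higher, by 0.24 and 0.48, and only miR-223KO replicate 1 lay within the WT range. A second Prelp probe gave 0.13. Fmod, fibromodulin, which binds collagen, had WT ratios of 0.67, 0.22, -0.38 and -0.22 and miR-223KO ratios of 0.18, 0.13, -0.32 and 0.54. Its difference of 0.06 (SE 0.24) had no steady sign: it was -0.29 on the first slide and 0.41 on the second, and leaving out one replicate moved it between -0.09 and 0.26.

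The adhesion genes gave 1 higher and 4 lower of 5 tested. Lad1, an anchoring filament protein of basement membranes, had WT ratios of -0.38, -0.13, -0.47 and -0.62 and miR-223KO ratios of -0.07, -0.14, -0.06 and -0.12. The miR-223KO values lay within a narrow band that WT replicate 2 entered, and the difference was 0.30 (SE 0.17). It was above background on 2 WT arrays and 4 miR-223KO arrays. Nfasc, a cell adhesion molecule of the axon, had WT ratios of 0.05, 0.26, 0.78 and 0.53 and miR-223KO ratios of 0.07, 0.25, 0.03 and -0.10, a difference of -0.34 (SE 0.20) that was 0.01 on the first slide and -0.69 on the second. Plekha6, a pleckstrin-domain protein, stood at -0.19 by its brightest probe. Its other probe gave -0.16, -0.15, -0.10 and -0.11 in WT and -0.74, -0.28, -0.84 and -0.68 in miR-223KO, groups that did not overlap, with a difference of -0.51 (SE 0.18). For that probe the Cy5 difference was -0.25 and the Cy3 difference 0.25.

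Genes of transport, cytoskeleton and traffic gave 3 higher and 5 lower of 8 tested. Ipo9, a nuclear import receptor, had WT ratios of -0.03, -0.01, -0.10 and -0.11 and miR-223KO ratios of -0.27, -0.17, -0.31 and -0.12. The groups did not overlap, by a narrow margin at replicate 4, and the difference was only -0.16 (SE 0.17). Golt1a, a Golgi transport protein, had WT ratios of 0.66, 0.26, -0.46 and 0.06 and miR-223KO ratios of -0.52, -0.75, -0.28 and -0.09. Its difference of -0.54 (SE 0.23) came from the first slide, at -1.10, with 0.01 on the second. Arl8a, a small GTPase that places lysosomes, had WT ratios of -0.04, 0.0092, 0.07 and 0.36 and miR-223KO ratios of 0.28, -0.23, 1.04 and 0.94. There the second slide carried the difference of 0.41 (SE 0.25), with 0.78 against 0.04 on the first.

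Metabolic, mitochondrial and solute transport genes gave 3 higher and 4 lower of 7 tested. Pm20d1, a secreted enzyme that makes N-acyl amino acids, held the highest difference in the list, 0.59 (SE 0.23). Its WT ratios were -0.20, -0.38 and 0.29, with replicate 4 left out as an outlier, and its miR-223KO ratios were 0.40, 0.22, 0.95 and 0.42. WT replicate 3 lay above miR-223KO replicate 2, so the groups overlapped. It stood higher on both slides, by 0.60 and 0.39, with a Cy5 difference of 0.69 and a Cy3 difference of 0.10. Its second probe was not above background on any array.

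Timm17a, of the mitochondrial import machinery, had WT ratios of 0.94, 0.69, -0.73 and -0.40 and miR-223KO ratios of 0.21, -0.47, -0.95 and -0.07. The WT values split by slide, and the difference of -0.45 (SE 0.34) was -0.95 on the first slide and 0.05 on the second. For that probe the Cy5 difference was 0.06 and the Cy3 difference 0.51. Slc45a3, a sugar transporter known from prostate, had WT ratios of -0.62, -0.09, 0.33 and 0.34 and miR-223KO ratios of -0.15, 0.36, 0.10 and 0.50, a difference of 0.21 (SE 0.23) that was 0.01 without WT replicate 1. Adipor1, a receptor of adiponectin, stood at 0.03.

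Receptors and signalling genes gave 1 higher and 4 lower of 5 tested. Klhl12, a substrate adaptor of a cullin ubiquitin ligase that acts on COPII vesicles, had WT ratios of 0.98, 0.53, 0.34 and 0.15 and miR-223KO ratios of -0.21, 0.49, -0.18 and 0.41. Its difference was -0.37 (SE 0.23), with a Cy5 difference of -0.15 and a Cy3 difference of 0.22, and its other probe gave 0.18. Pik3c2b, a class II phosphoinositide 3-kinase, had WT ratios of 0.35, 0.43, 0.63 and 0.86 and miR-223KO ratios of 0.63, 0.53, 0.0009 and 0.32, a difference of -0.20 (SE 0.20).

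**Figure D2:**
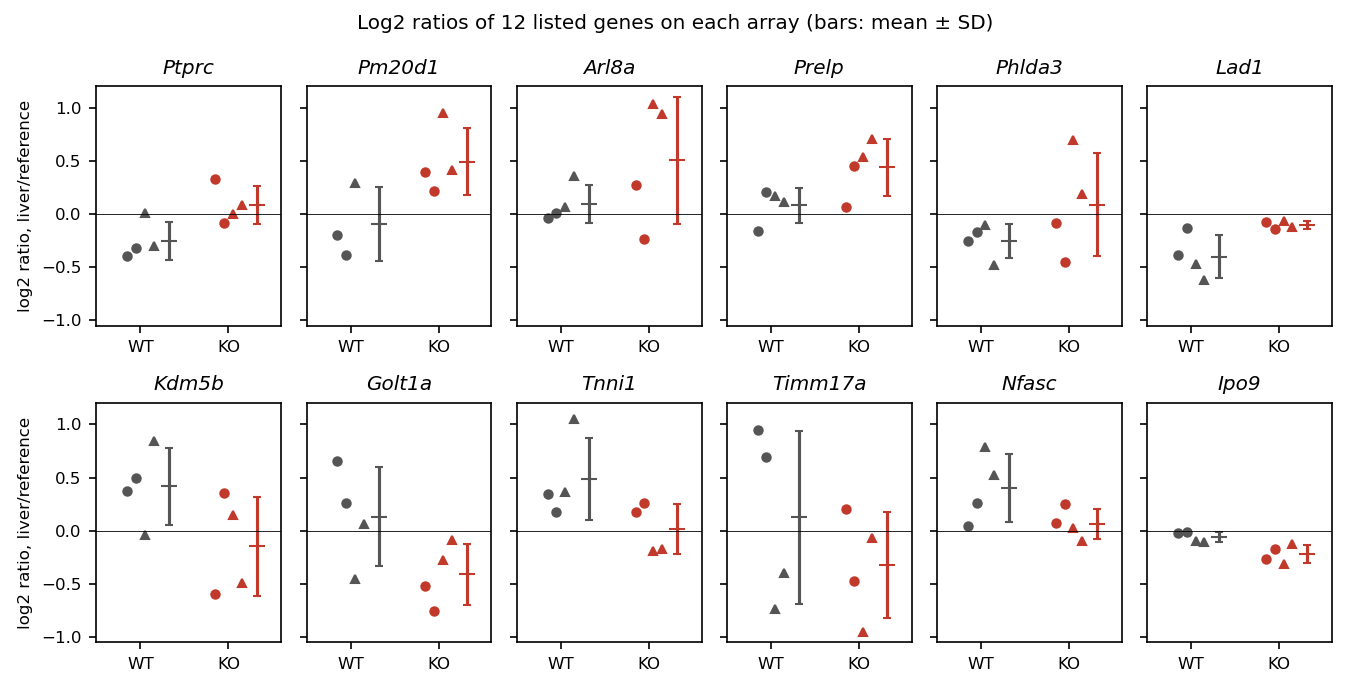
Log2 ratio of liver over reference (vertical axis) on each array for 12 listed genes, with WT beside miR-223KO; circles are replicates 1 and 2 on the first slide, triangles are replicates 3 and 4 on the second, and bars give the mean ± SD. The groups overlap in every gene shown except Ipo9, and the difference of Golt1a lies on the first slide (-1.10) and that of Arl8a on the second (0.78).

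Where a gene had several probes, they often differed. Of the 27 genes with 2 or more tested probes, 15 had probes of both signs and 12 had one sign. The 5 with all probes higher were Ddx59, Dennd1b, Ppp1r15b, Prelp and Ptprc, and the 7 with all lower were Kdm5b, Nfasc, Plekha6, Rbbp5, Timm17a, Tmem9 and Tnni1. The share with both signs was not computed over everything tested. The median range between a gene's probes was 0.31, beside a median standard error of 0.204 for the brightest probe. A range over several probes and the error of 1 probe are unlike measures, so disagreement beyond noise is not read from them. Ppp1r12b had the widest range, 0.711, followed by Klhl12 at 0.548. Ptprc had one of the narrowest, 0.0457.

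**Figure D3:**
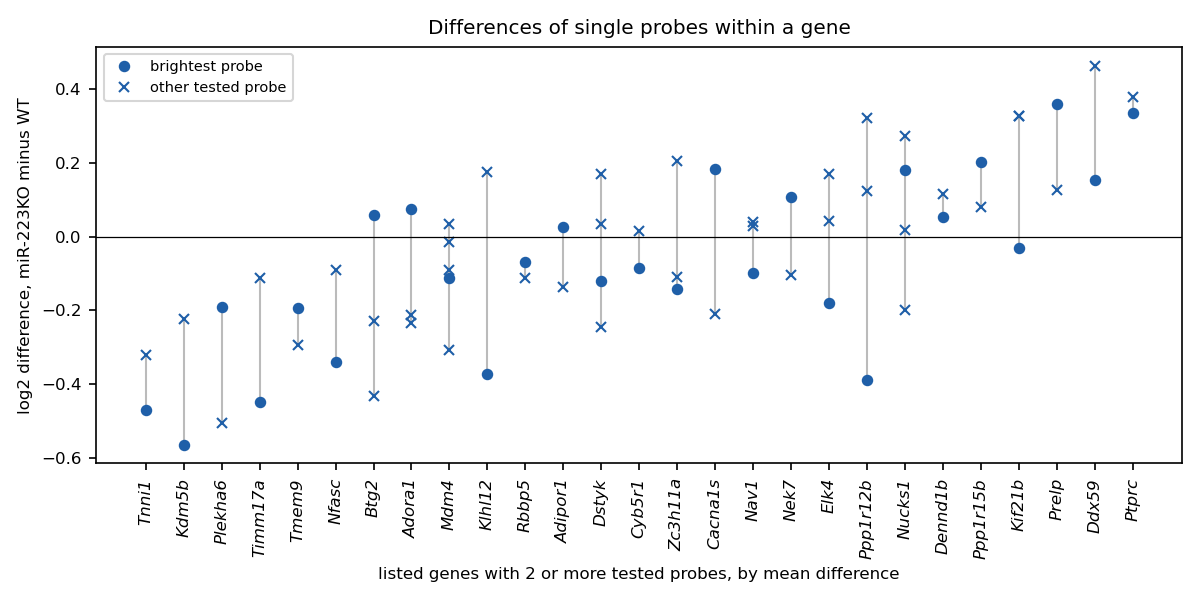
Log2 difference, miR-223KO minus WT (vertical axis), of every tested probe of the 27 listed genes with 2 or more tested probes (horizontal axis, one column a gene). Ptprc, Ddx59, Kdm5b and Tnni1 keep all probes on one side of 0, while the probes of Ppp1r12b run from -0.39 to 0.32.

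Set against the mixed-tissue reference, the listed genes were neither a high nor a low group in liver. WT mean ratios ran from -0.62 (Rabif, a Rab chaperone) to 0.98 (Nav1, a neuron navigator), with 24 above 0 and 28 below. Nav1's other probes gave -0.20 and -0.44, so that rank belongs to 1 probe. With no dye swap, a level against the reference cannot be told apart from a dye effect.

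Several differences were larger in the authors' deposited table, which differs from the values above in its background correction, normalisation and treatment of outlier spots at once. With no background subtraction and the other steps kept, Ptprc stood at 0.34, Ddx59 at 0.16 and Lad1 at 0.28. With only the outlier spots kept, they stood at 0.35, 0.15 and 0.30. Median centring in place of loess gave 0.23, 0.12 and 0.25, and a normexp offset of 16 gave 0.44, 0.245 and 0.44. The deposited LogRatio, with outlier spots still left out, gave 0.389 for Ptprc, 1.2 for Ddx59, 1.05 for Lad1 and -1.07 for Tnni1. For Ptprc and Ddx59 these are values of the other probe, since the brightest probe was picked again from the reprocessed signals. The deposited LogRatio changes background correction and normalisation together, and the part of each was not tested. In the authors' deposited table, the log2 fold change of Ptprc was 0.79 by the brightest probe and 0.39 by the other. For Ddx59, the authors' deposited table gave 0.88 and 1.20. For Lad1 it was 1.05 in the authors' deposited table, and for Tnni1 -1.07. Splitting the 93 tested probes at a mean log2 signal of 8, a level chosen after the values were seen, left 43 dimmer probes whose median absolute difference was 0.173 here and 0.259 in the authors' deposited table. For the 50 brighter probes the medians were 0.15 here and 0.194 in the authors' deposited table. The sign was shared by 38 of the 43 and 42 of the 50.

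**Figure D4:**
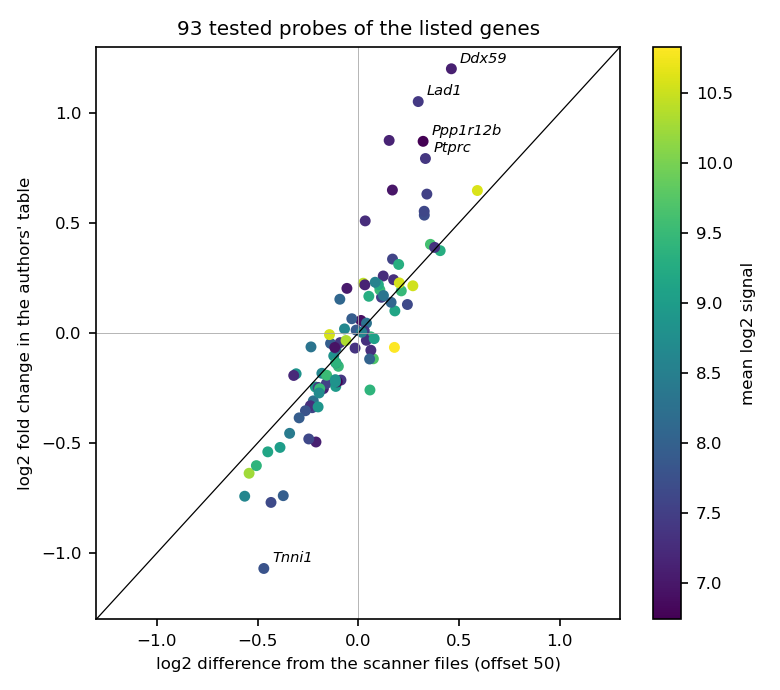
Log2 fold change in the authors' deposited table (vertical axis) against the log2 difference computed from the scanner signals (horizontal axis) for the 93 tested probes of the listed genes, coloured by mean log2 signal. Dim probes, among them the other Ddx59 probe at 1.20 in the authors' deposited table and 0.46 here, lie farthest from equality.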

How the data were processed

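Scanner files of 8 Agilent 2-colour arrays were used. Per the file headers, signals were read with Agilent Feature Extraction 12.0.3.1. The deposited files give spot and background signals as intensity, and a LogRatio on the log10 scale, per the file headers. The authors' deposited table holds log2 ratios and a log2 fold change, which matched the difference of its own group means (miR-223KO less WT) within 5.2e-07.

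From the deposited median intensity, background was corrected with normexp (offset 50; outlying local backgrounds replaced by the array's median) and arrays were normalised by loess. Outlier spots were left out and spots of a probe averaged. Probes above background in Cy5 on at least 4 of 8 arrays, with at least 3 values per group, were tested with limma 3.58.1 (R 4.3.3), adjusting by Benjamini-Hochberg over 16755 genes and unnamed probes. A gene is its brightest tested probe; other probes come from a fit of all probes. Names came from accessions (28462 probes) or symbols (6902), through RefSeq (GRCm38.p6); 5810 probes had none. On simulated data for this comparison with 16755 genes, log2 changes of 1 and 2 were called in 59% and 97% of genes. In that simulation 100 genes were changed at each size, with independent normal noise, no slide effect and no missing spots. The shares therefore need not hold for the real arrays. Smaller changes were not simulated, and the largest listed difference was 0.59.

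The members and lists were chosen with earlier results of these data known. Values on every array are given for Ptprc, genes whose groups do not overlap, the 10 largest differences in each direction, and, where a role then has fewer than 2, its brightest genes up to 2. Replicate numbers did not pair the samples (correlations of deviations from -0.0227 to 0.0624). Alternatives covered background, normalisation, filter, probe choice, slide, replicate block and each replicate left out. The number of arrays limits the precision.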

Additional observations from a re-analysis of the deposited data

Results flagged for a closer look

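Among 101 groups of 4 values, 1 for each genotype of each listed gene tested with 4 values, 5 held a sample whose gap to the nearest other value exceeded Dixon's 95% critical value, as a share of the group's range. Chance gives about 1 in 20. Adipor1 was 0.0817 in miR-223KO replicate 3, against 0.615 to 0.657 in the others. Ptpn7 was -0.649 in WT replicate 2, against -0.309 to -0.253. Rabif was -0.168 in miR-223KO replicate 1, against -0.578 to -0.524. WT replicate 4 stood apart in Rnpep, an aminopeptidase, at -0.696 against 0.131 to 0.276, and in Zc3h11a, a zinc finger protein of mRNA export, at 0.281 against -0.229 to -0.145.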

How the results depend on the processing

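No listed gene was called under any of the 22 alternatives that allow a test. Over everything tested, 2 calls became 4 with a normexp offset of 16, and 1 with the deposited LogRatio, the authors' deposited table, median centring, outlier spots kept, or probes averaged within genes; leaving out each replicate gave 2 to 3 and kept the listed count at 0. The listed median of -0.0582 became 0.0686 with median centring, 0.0347 on slide 1 alone, and -0.0793 to 0.0225 with each replicate left out. The cause was not tested. Of 642 values of the 27 named genes under alternatives, 614 kept their sign, and 13 genes kept it in all. Part of this was fixed in advance. Scaling between arrays (Aquantile) cannot change a difference, nor can a trended and robust variance in limma's moderated test. The slide or replicate block cannot change it either for genes with a value on every array. Both alternative filters on dim signals, none or all 8 arrays, returned the main value for every named gene they tested. Leaving out 1 replicate moved 19 of the 27 by over 1.5 times in at least 1 case; the other 8 were Golt1a, Ipo9, Kdm5b, Lad1, Lmod1, Pm20d1, Prelp and Ptprc.

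The sign turned for Kif14 (0.0401) and Lax1 (0.00452) with median centring; for Cacna1s (-0.0138) and Ppp1r12b (0.0111) with the mean of probes, and for the same genes (-0.0138 and 0.0194) over every probe; and for Fmod (-0.0171) and Nucks1 (-0.0653) with the deposited LogRatio and the authors' deposited table. On slide 1 alone it turned for Fmod (-0.29), Lax1 (0.323), Nek7 (-0.0998), Nfasc (0.011), Phlda3 (-0.0543) and Pik3c2b (0.187), and on slide 2 alone for Cacna1s (-0.158), Golt1a (0.0136), Kif14 (0.0243), Slc45a3 (-0.0319), Snrpe (-0.329) and Timm17a (0.0538).

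With the replicate block, 2 genes were called over everything tested, 0 of them listed, and the listed median was -0.0582; it changed no call. Of the 52 genes, 42 were above background on all 8 arrays. The other 10 were Aspm, Csrp1, Lax1, Phlda3 and Ptprc (7 arrays), Ddx59 and Lad1 (6), Crb1 and Zbtb41 (5) and Ube2t (4).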
